A study of Mus musculus with 8 samples.

Results

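The 33 genes described here encode transcription factors, receptors, membrane and surface proteins and haem enzymes of the red cell lineage. They were taken by name from the annotation of the array, which lists 36517 gene names, and all 33 were measured, by 41 probes. The source was RNA from mouse cardiac outflow tracts, the channel that carries blood from the heart tube to the arteries, dissected from embryos at stage E10.5. The study compared embryos without Raldh2 with wild type littermates, and the dams of both groups had been given all-trans-retinoic acid. Raldh2, now named Aldh1a2, encodes the enzyme that makes most of the retinoic acid of the early embryo, and embryos without it die early unless retinoic acid is supplied. The group called knockout below consisted of 4 pools from Raldh2-/- embryos, numbered 1, 2, 3 and 7. The group called wild type consisted of 4 pools, numbered 1, 2, 5 and 7. Every pool held 4 outflow tracts. In both groups the powdered food of the dam contained 0.1 mg/g retinoic acid between E7.5 and E8.5, so the knockout embryos were rescued and the wild type embryos were supplemented too. The strain, the embryos behind each pool and the way blood was handled at dissection are not given in the sources used here.

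Red cells of the early embryo are made in the yolk sac and mature while they circulate, so a dissected heart vessel carries them in its lumen. GATA1, together with its cofactor FOG1 (gene Zfpm1), TAL1 and KLF1, switches on the genes of haemoglobin, haem synthesis and the red cell membrane. Haem is built from glycine and succinyl-CoA in a chain of enzymes that begins and ends in the mitochondrion, and the membrane is held in shape by a spectrin network anchored to the anion exchanger band 3. In RNA from a whole tissue, fewer cells of a type and less RNA per cell cannot be told apart.

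The promoters of 5 members are shown because members differed in how far they moved from pool to pool. Klf1 and Alas2 stand for the regulators and for haem synthesis, while Kel and Rhag, 2 surface proteins with wide swings, and Ppox, a haem enzyme with narrow ones, were chosen after their values were seen. Each line gives the 250 bases before the start of the gene, 5′ to 3′ on the strand of the gene, from RefSeq (GRCm38.p6). They lie at chr8:84901732-84901981 (plus strand) for Klf1, chrX:150547167-150547416 (plus) for Alas2, chr6:41704326-41704575 (minus) for Kel, chr17:40810899-40811148 (plus) for Rhag and chr1:171281187-171281436 (minus) for Ppox. Capitals mark matches on either strand to the GATA motif, searched as AGATAA as well as AGATAG, and TGATAA as well as TGATAG, and to the KLF motif, searched as CCNCNCCC.
Klf1: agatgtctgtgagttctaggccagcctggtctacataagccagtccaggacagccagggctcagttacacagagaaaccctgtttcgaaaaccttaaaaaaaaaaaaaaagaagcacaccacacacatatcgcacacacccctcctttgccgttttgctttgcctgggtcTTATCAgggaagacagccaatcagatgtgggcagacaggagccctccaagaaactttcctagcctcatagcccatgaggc
Alas2: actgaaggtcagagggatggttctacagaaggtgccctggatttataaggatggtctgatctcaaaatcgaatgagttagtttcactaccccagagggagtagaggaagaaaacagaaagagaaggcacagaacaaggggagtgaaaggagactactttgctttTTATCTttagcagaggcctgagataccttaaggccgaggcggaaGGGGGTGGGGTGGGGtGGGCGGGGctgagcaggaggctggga
Kel: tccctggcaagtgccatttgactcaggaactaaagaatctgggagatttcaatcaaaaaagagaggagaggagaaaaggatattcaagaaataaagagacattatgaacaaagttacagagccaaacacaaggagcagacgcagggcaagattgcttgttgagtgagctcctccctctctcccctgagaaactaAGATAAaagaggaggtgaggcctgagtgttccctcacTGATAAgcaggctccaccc
Rhag: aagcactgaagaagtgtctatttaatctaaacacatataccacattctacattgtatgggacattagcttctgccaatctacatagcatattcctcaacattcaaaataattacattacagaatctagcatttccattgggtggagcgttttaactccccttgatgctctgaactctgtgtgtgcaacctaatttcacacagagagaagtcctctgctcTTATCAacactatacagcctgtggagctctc
Ppox: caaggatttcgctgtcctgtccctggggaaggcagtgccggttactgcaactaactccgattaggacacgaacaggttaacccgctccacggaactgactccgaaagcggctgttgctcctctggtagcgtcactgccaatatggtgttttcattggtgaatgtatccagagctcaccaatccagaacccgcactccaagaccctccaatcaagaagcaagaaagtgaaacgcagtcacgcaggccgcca
The Kel window held 2 GATA matches, those of Klf1, Alas2 and Rhag held 1 each, and that of Ppox held no match to either motif. The Alas2 window also held 4 KLF matches close to the start, some of which overlap within 1 marked stretch. Overlapping matches were counted separately in all windows. Matches did not follow the swings in every member. Outside wild type pool 1 Hemgn spanned only 0.50, and its window held 1 GATA and 4 KLF matches. Gata1 spanned 2.80, and its window held 0 GATA and 3 KLF matches. Whether motifs go with the spread between pools was not tested. RefSeq windows were found for 27 of the 33 members, which have 33 windows because some genes have several starts. Fech, Slc4a1, Nfe2, Ahsp, Slc25a37 and Ank1 had no entry. A GATA match lay in 18 of these 33 windows (54.5%), beside 26.5% of all 32851 windows. A KLF match lay in 19 (57.6%, all windows 45.9%), and the E-box CAGNTG, the kind of sequence TAL1 binds, lay in 11 (33.3%, all windows 44.8%). A match is a run of letters and not a binding site.

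Each pool was hybridised to 1 one-colour array, and all 8 arrays lay on 1 slide, the knockout arrays in row 1 and the wild type arrays in row 2, which means that genotype and row on the slide cannot be told apart. Wild type pool 1 gave an array unlike the others. It had 56157 spots well above background against 31633 to 37475 on the other arrays, and 87.5% of the probes that were dim on all other arrays were called above background there. Its median signal was 2023 with a 75th percentile of 4211, where the other medians ran from 40.0 to 83.0 and their 75th percentiles from 659 to 1134, so that bright and dim genes lay closer together on it. The results are therefore given with and without it. Levels are log2 signals relative to the 75th percentile of the array, and a level of 0 is that percentile. Aldh1a2, the targeted gene, stood at 2.02, 2.0, 1.87 and 0.060 in knockout pools 1, 2, 3 and 7 and at 1.93, 3.22, 2.98 and 3.65 in wild type pools 1, 2, 5 and 7. Its log2 fold change, knockout minus wild type, was -1.45 ± 0.55 (SE, n = 4 per group, limma adjusted p = 0.736), and the probe was read in the knockout pools too; whether it lies in the deleted part of the gene was not looked up. Of the heart muscle list all 14 genes were measured and of the outflow tract cushion and progenitor list all 12, and the cardiac actin Actc1 stood between 8.47 and 9.05 outside wild type pool 1.

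Red cell genes stood higher on average in the knockout pools, but the pools of each group spread so widely that no member passed the test. Of the 33 members, 30 had a positive log2 fold change, beside 56.9% of all genes, and the median was 0.92, beside 0.13 over all 24387 genes tested. Over all 8 arrays the largest differences were those of the surface protein Kel (1.59 ± 0.67, 3.0-fold) and the Rh protein Rhd (1.44 ± 0.72, 2.71-fold). The mitochondrial iron carrier Slc25a37 (1.43 ± 0.74) and the haem enzyme Alas2 (1.43 ± 0.78) came next. Without wild type pool 1 these differences were smaller, at 1.12, 0.89, 0.85 and 0.79 in the order named. Ermap (1.11), Trim10 (1.10), Rhag (1.07) and Epb4.2 (1.01) then stood above Rhd, Slc25a37 and Alas2. Sptb, Trim58 and Tspo2 had negative values over all 8 arrays, and all 3 turned positive with array median scaling and with quantile normalization. Array median scaling moved the median of all genes to 0.67 and that of the members to 1.47.

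With limma over all genes, 0 of the 33 members had an adjusted p under 0.05, as did 0% of all genes, and the members' adjusted p ran from 0.736 to 0.920. At an unadjusted p under 0.05 there was 1 member, Kel, beside 1.79% of all genes. The knockout and wild type values overlapped in every member, whereas they did not overlap in 5.45% of all genes. Leaving out wild type pool 1 lowered the median over members to 0.59 (all genes 0.051), with 29 members positive beside 59.1% of all genes. No member then reached an unadjusted p under 0.05 with limma, beside 6.14% of all genes that were higher and 4.4% that were lower, and in no member did the groups separate, beside 11.4% of all genes. The negative members were then Tfrc, Sptb, Ppox and Hemgn.

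**Figure D1:**
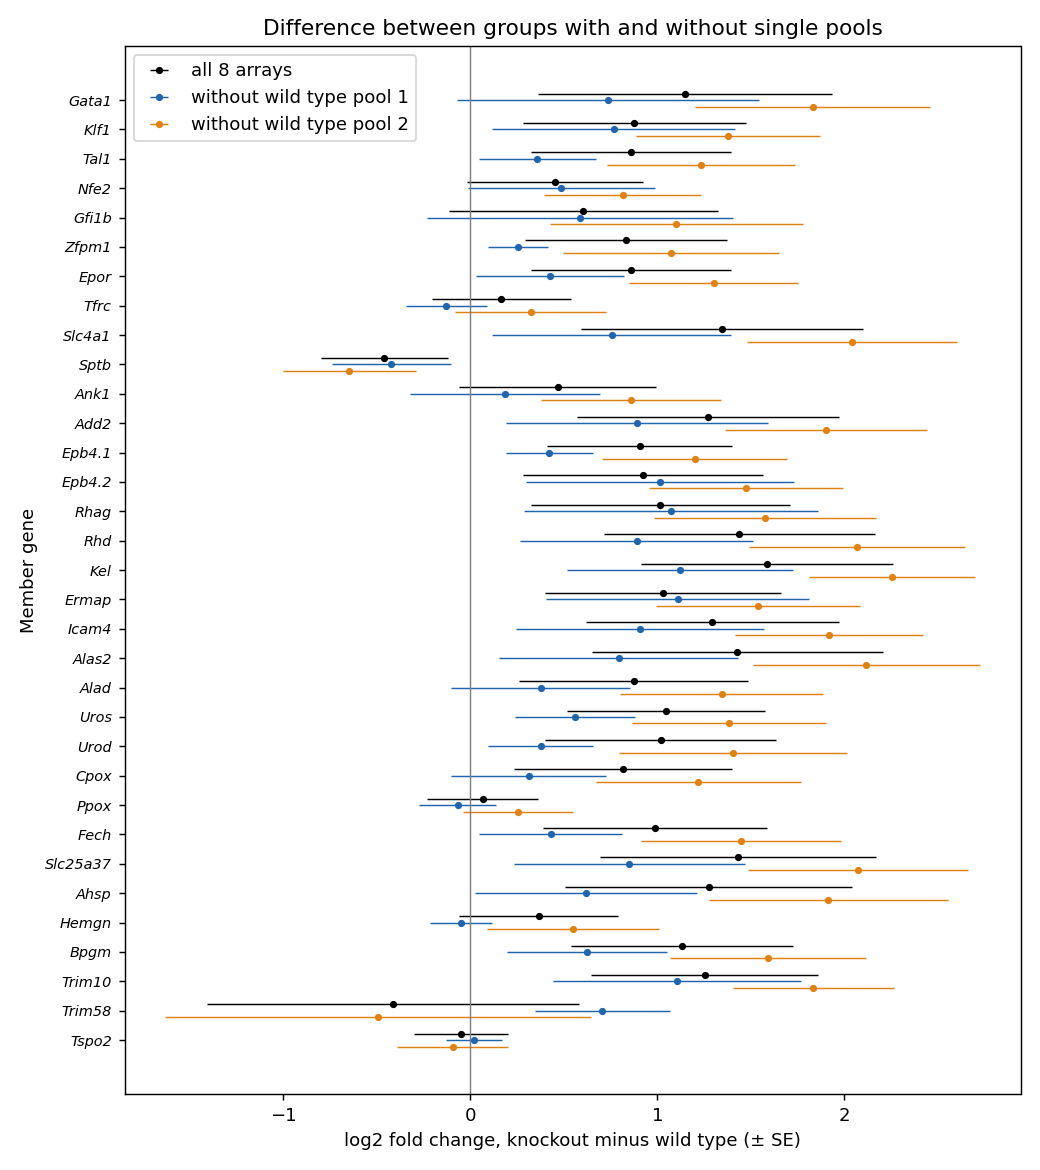
Log2 fold change of each member, knockout minus wild type, with its standard error, for all 8 arrays (black), without wild type pool 1 (blue) and without wild type pool 2 (orange). Most points lie to the right of 0; they move left without wild type pool 1 and right without wild type pool 2.

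Wild type pool 2 differed from its group. It was the highest wild type pool in 28 of 33 members, beside 13.3% of all genes, and stood above knockout pool 3, in 30 (all genes 47.7%). Knockout pool 3 was the lowest knockout pool in 27 members (all genes 37%). In 0 members did wild type pool 2 lie below all knockout pools (all genes 29.9%). Wild type pool 5 lay below all knockout pools in 30 members (all genes 21%) and wild type pool 7 in 22 (all genes 31.8%). Among the 7 pools other than wild type pool 1, knockout pool 2 was the highest in 22 members (all genes 8.24%), and wild type pool 5 was the lowest in 29 (all genes 10.3%).

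With wild type pool 2 left out, the median over members was 1.38 (all genes 0.19). The groups then separated in 16 members. Of these, 15 were higher in the knockout pools, beside 6.36% of all genes, and Sptb was lower, beside 2.74%. An unadjusted p under 0.05 was reached by 21 members, all higher, beside 1.43% of all genes, and none passed after adjustment (smallest limma adjusted p among members 0.610). These counts are a description and no test of the genotype: this pool was singled out for its high values in these same members, and the 3 wild type pools left include the deviating array. Leaving out knockout pool 3 gave an unadjusted p under 0.05 for 5 members (Add2, Rhd, Kel, Icam4 and Trim10), and 0 after adjustment. All 5 were higher, beside 0.394% of all genes that were higher and 1.22% in either direction. Knockout pool 3 was the lowest knockout pool in 27 of these same members, so this count, too, is no test of the genotype.

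The pools of 1 group differed from each other more in these genes than in most. Over the 7 pools other than wild type pool 1, a member spanned a median of 1.81 on the log2 scale, and 27 of 33 spanned at least 1 (81.8%), beside a median of 0.65 and 28.4% over all genes. Within groups, the median residual SD of the members was 0.77 without wild type pool 1, beside 0.21 over all genes.

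**Figure D2:**
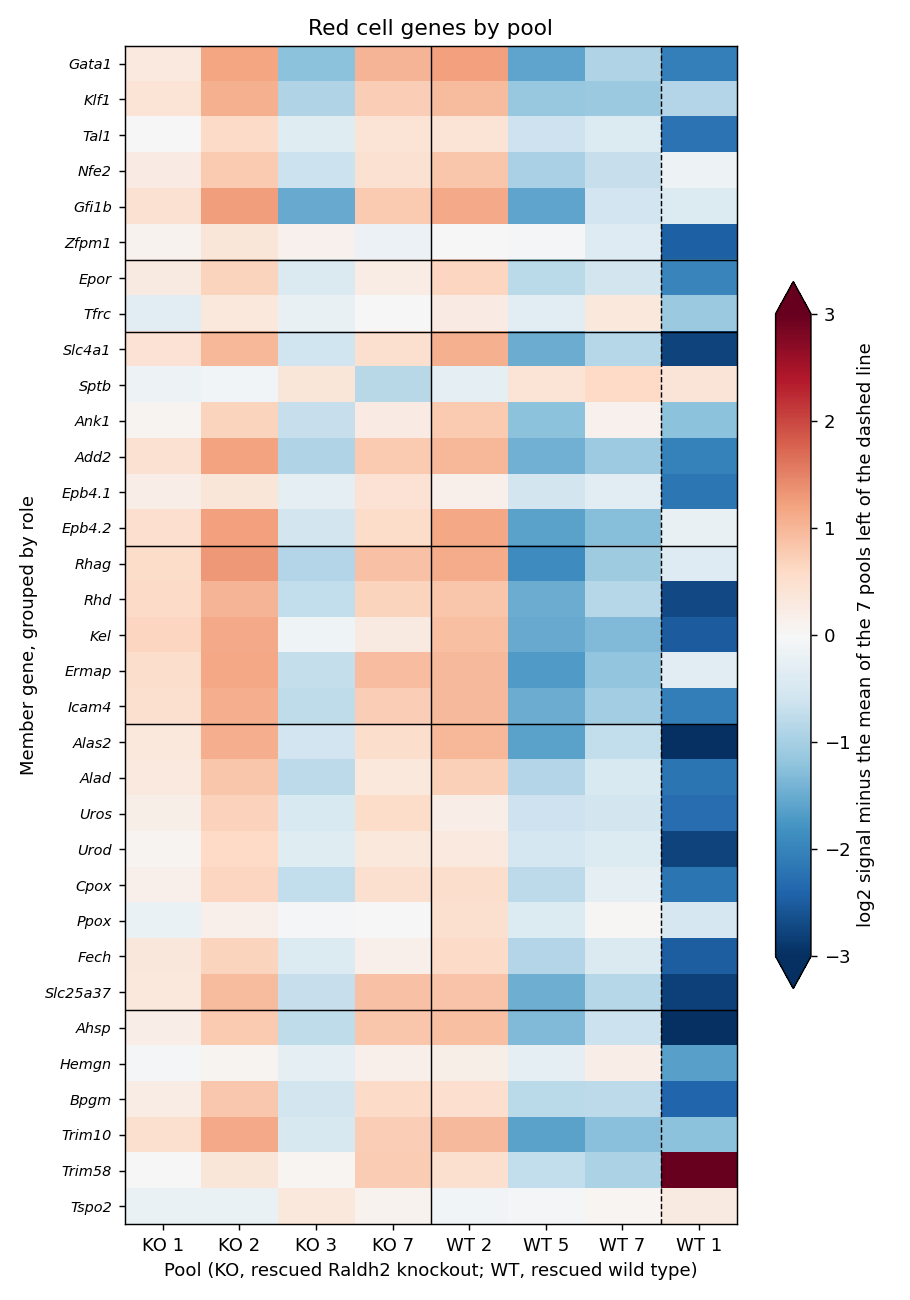
Log2 signal of each member (rows, grouped by role) in each pool (columns), minus the mean of the member over the 7 pools left of the dashed line; red is above and blue below that mean. Knockout pool 2 and wild type pool 2 are red and wild type pool 5 is blue in most rows, and the array of wild type pool 1, right of the dashed line, is blue for most but not all members.

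The transcription factors were read in every pool. In 5 of the 6, all but Zfpm1, knockout pool 3 was the lowest knockout pool, and in all 6 wild type pool 2 was the highest wild type pool. All 6 were positive, with a median log2 fold change of 0.85, and 0.54 without wild type pool 1. Values are given for knockout pools 1, 2, 3 and 7 and then for wild type pools 1, 2, 5 and 7. Gata1, the zinc finger factor that red cells and platelet precursors both need (probe on chromosome X at 7536392 to 7536451, mm9), stood at 2.01, 2.91, 0.48 and 2.74 in the knockout pools and at -0.34, 2.94, 0.14 and 0.81 in the wild type pools. Knockout pool 3 stood below wild type pool 7, and wild type pool 2 stood above every knockout pool. The difference was 1.15 ± 0.79 (SE, 4 pools per group), against 0.74 ± 0.81 without wild type pool 1. Klf1, which activates globin genes through CACC sequences (chromosome 8, 87428881 to 87428940), stood at 1.86, 2.53, 0.55 and 2.20 against 0.57, 2.41, 0.31 and 0.33. Wild type pool 2 read with the 3 higher knockout pools, and the other wild type pools read with knockout pool 3. Its difference was 0.88 ± 0.59, and 0.77 ± 0.65 without wild type pool 1.

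Tal1, a helix-loop-helix factor without which no blood forms, stood at 1.96, 2.51, 1.58 and 2.35 against -0.26, 2.36, 1.33 and 1.54. Nfe2, the larger subunit of a factor that binds the globin control region, stood at 0.93, 1.46, 0.045 and 1.14 against 0.53, 1.52, -0.30 and -0.0023. Gfi1b, a repressor of the red cell and platelet lineages, stood at 0.50, 1.29, -1.46 and 0.83 against -0.37, 1.18, -1.53 and -0.53. In Nfe2 and Gfi1b wild type pool 5 was the lowest of all pools, and knockout pool 3 lay below wild type pool 1. The differences were 0.86 ± 0.53, 0.45 ± 0.47 and 0.60 ± 0.72, and 0.36, 0.49 and 0.59 without wild type pool 1. Zfpm1, the cofactor of GATA1, varied little outside wild type pool 1, at 5.14, 5.39, 5.16 and 4.85 against 2.57, 5.01, 4.99 and 4.64. Its 7 pools other than wild type pool 1 lay within 0.75 of each other, and its difference of 0.83 ± 0.54 was 0.26 ± 0.16 without that array. A second Zfpm1 probe gave 0.82 and 0.18. It lies at 124861087 to 124861146 on chromosome 8 and overlaps most of the first, at 124861092 to 124861151, so it is hardly a separate reading.

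Of the receptors, that of erythropoietin was lower in wild type pools 5 and 7 than in every knockout pool, and that of transferrin was not. Epor, through which erythropoietin keeps red cell precursors alive, stood at 3.02, 3.44, 2.32 and 3.0 against 0.78, 3.41, 1.95 and 2.20, a difference of 0.86 ± 0.53. Without wild type pool 1 it was 0.43 ± 0.40. Tfrc, the transferrin receptor that takes iron into most dividing cells, stood at 1.48, 2.13, 1.57 and 1.80 against 0.70, 2.05, 1.46 and 2.12. Its highest wild type value, in pool 7, lay close to its highest knockout value. The difference was 0.17 ± 0.37 and turned to -0.13 ± 0.22 without wild type pool 1. Of 2 other Tfrc probes, 1 gave 0.49 and the other 0.039, and 0.12 and 0.13 without that pool.

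Genes of the membrane and its skeleton were mostly higher on average in the knockout pools, and Sptb was the exception. Of 6 genes, 5 were positive, with a median of 0.91, and 0.59 without wild type pool 1. Slc4a1, the band 3 anion exchanger (chromosome 11, 102210256 to 102210315), stood at 4.11, 4.69, 3.07 and 4.15 against 0.89, 4.75, 2.18 and 2.82. Wild type pool 2 was the highest of all pools, and the other wild type pools lay below every knockout pool. Its difference was 1.35 ± 0.75, 0.76 ± 0.64 without wild type pool 1 and 2.04 ± 0.56 without wild type pool 2. Add2, the beta subunit of adducin, which caps actin at the junctions of the spectrin network, stood at 1.0, 1.77, -0.36 and 1.33 against -1.48, 1.55, -0.89 and -0.53. The same wild type pool stood apart, and the difference was 1.27 ± 0.70, or 0.89 ± 0.70 without wild type pool 1.

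Epb4.2 (now Epb42, protein 4.2, which binds band 3) stood at -0.79, -0.063, -1.86 and -0.76 against -1.52, -0.13, -2.91 and -2.59. Ank1, the ankyrin that ties spectrin to band 3, stood at -0.67, -0.10, -1.45 and -0.52 against -1.99, 0.027, -2.0 and -0.64. Their differences were 0.92 ± 0.64 and 0.47 ± 0.53, and 1.01 and 0.19 without wild type pool 1. In Ank1 wild type pool 7 lay above knockout pool 1, so the order of pools was not that of Slc4a1. Epb4.1 (now Epb41, protein 4.1, which joins spectrin to actin) stood at 4.75, 4.91, 4.26 and 4.99 against 2.37, 4.71, 4.0 and 4.21, a difference of 0.91 ± 0.49, or 0.42 ± 0.23 without wild type pool 1. It has 3 probes that did not go together: 2 dimmer ones gave 0.21 and -0.63, and 0.26 and 0.046 without that pool. Sptb, the beta spectrin of red cells (chromosome 12, 77682089 to 77682148), stood at -1.27, -1.20, -0.76 and -1.95 against -0.73, -1.40, -0.71 and -0.51. It was lowest in knockout pool 7 and highest in wild type pool 7, and in the wild type group it was lowest in pool 2, the pool in which most other members were highest. Its difference was -0.46 ± 0.34, or -0.42 ± 0.32 without wild type pool 1.

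The blood group proteins of the cell surface swung widely between pools. All 5 were positive, with a median of 1.29, and 1.07 without wild type pool 1. Kel, the Kell protein, an enzyme that cleaves endothelin (chromosome 6, 41636474 to 41636533), stood at 1.76, 2.26, 0.99 and 1.39 against -1.39, 2.02, -0.38 and -0.20. Every wild type pool but pool 2 lay below the lowest knockout pool. Its difference was 1.59 ± 0.67, 1.12 ± 0.61 without wild type pool 1 and 2.25 ± 0.44 without wild type pool 2. Rhag, the Rh-associated glycoprotein that carries ammonia (chromosome 17, 40976929 to 40976988), stood at -0.36, 0.40, -1.79 and -0.029 against -1.29, 0.21, -2.79 and -1.98. Over the pools other than wild type pool 1 it spanned 3.18, the widest of the members, from wild type pool 5 to knockout pool 2. Its difference was 1.02 ± 0.69, or 1.07 ± 0.78 without wild type pool 1.

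Rhd, the Rh protein that sits beside Rhag in the membrane, stood at 2.85, 3.28, 1.53 and 2.95 against -0.44, 3.1, 0.77 and 1.41. Icam4, an adhesion protein of the red cell surface, stood at 0.81, 1.42, -0.44 and 1.07 against -1.74, 1.29, -1.16 and -0.71. Ermap, an immunoglobulin-like protein of erythroblasts, stood at 1.07, 1.70, -0.16 and 1.48 against 0.22, 1.51, -1.15 and -0.63. In all 3 genes wild type pool 2 lay within the upper knockout pools and wild type pools 5 and 7 lay below all knockout pools. Their differences were 1.44 ± 0.72, 1.29 ± 0.68 and 1.03 ± 0.63, and 0.89, 0.91 and 1.11 without wild type pool 1. Ermap has 3 probes. A dimmer one at 118859754 to 118859813 on chromosome 4 gave 0.91, while one at 118849093 to 118849152 gave -0.27 and spanned only 0.64 over the pools other than wild type pool 1.

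**Figure D3:**
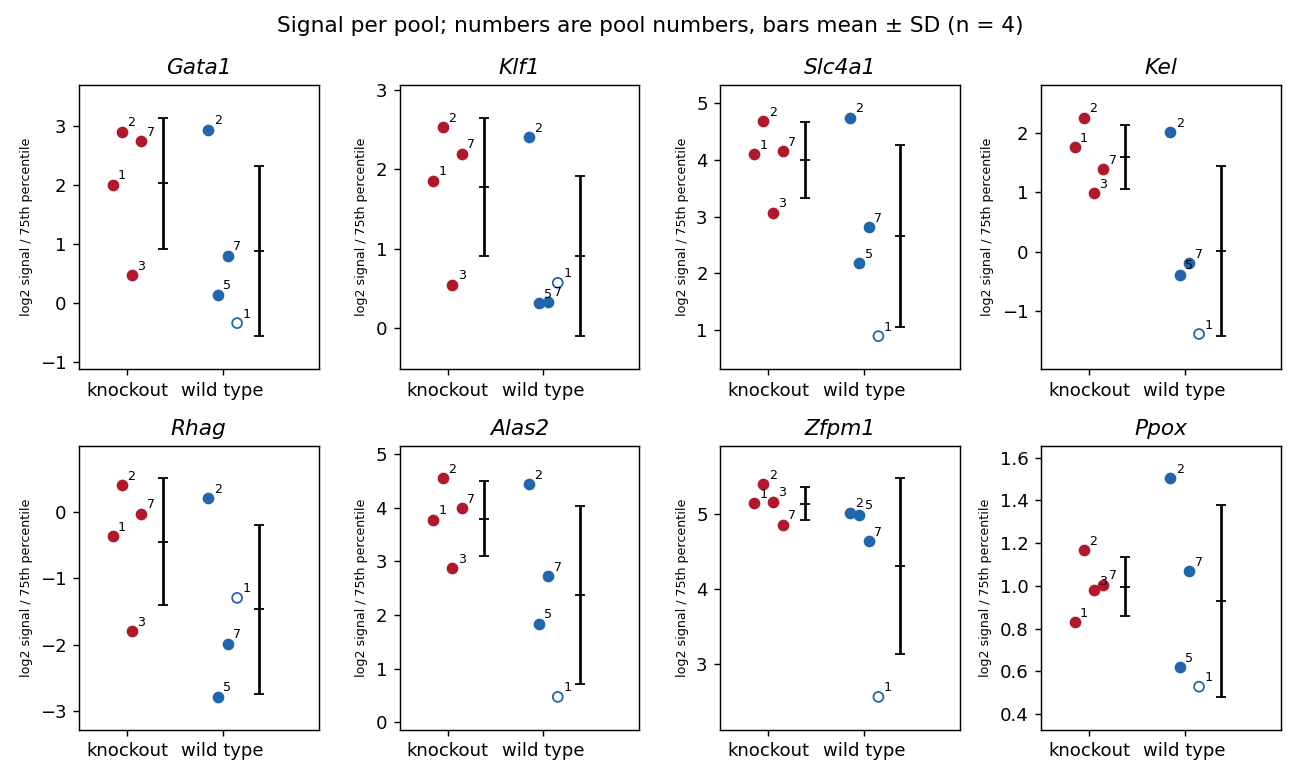
Log2 signal relative to the 75th percentile of the array for 8 members, 1 point per pool with the number of the pool beside it, and bars for the mean ± SD of 4 pools; the open circle is wild type pool 1. In Gata1, Klf1, Slc4a1, Kel, Rhag and Alas2 wild type pool 2 sits among the upper knockout pools, whereas in Zfpm1 only wild type pool 1 stands away and in Ppox the groups lie within a range of 0.97.

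Of the haem enzymes, the first of the pathway varied more between pools than those after it. All 8 genes were positive, with a median of 1.0; without wild type pool 1 the median was 0.40 and 7 were positive. Alas2, the red cell enzyme that begins the pathway (chromosome X, 147004993 to 147005052), stood at 3.77, 4.54, 2.87 and 3.99 against 0.47, 4.44, 1.84 and 2.72. Its difference was 1.43 ± 0.78, 0.79 ± 0.64 without wild type pool 1 and 2.12 ± 0.61 without wild type pool 2. Slc25a37, the mitoferrin that brings iron into the mitochondrion, stood at 4.65, 5.27, 3.63 and 5.20 against 1.52, 5.19, 2.85 and 3.47. In both genes wild type pools 5 and 7 lay below all knockout pools and wild type pool 2 lay among the highest. The difference of Slc25a37 was 1.43 ± 0.74, or 0.85 ± 0.62 without wild type pool 1, and its second, dimmer probe gave 0.44 and 0.38.

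Alad, which joins the first pathway intermediates into porphobilinogen, stood at 3.85, 4.39, 2.78 and 3.90 against 1.37, 4.27, 2.68 and 3.11. Uros, which closes the porphyrin ring, stood at 2.91, 3.41, 2.26 and 3.26 against 0.45, 2.92, 2.11 and 2.18. Urod, which removes carboxyl groups from it, stood at 5.02, 5.52, 4.57 and 5.24 against 2.14, 5.22, 4.39 and 4.52. Outside wild type pool 1 these 3 genes spanned 1.71, 1.30 and 1.13, against 2.71 in Alas2. Their differences were 0.87 ± 0.61, 1.05 ± 0.53 and 1.02 ± 0.62, and 0.38, 0.56 and 0.38 without wild type pool 1. Cpox, the next enzyme, stood at 3.06, 3.56, 2.17 and 3.40 against 0.72, 3.44, 2.12 and 2.64. Fech, which inserts the iron at the end of the pathway, stood at 4.59, 4.92, 3.85 and 4.41 against 1.78, 4.84, 3.39 and 3.82. Their differences of 0.82 ± 0.58 and 0.99 ± 0.60 shrank to 0.31 and 0.43 without wild type pool 1. Ppox, the enzyme before Fech, had a range of only 0.97 over all 8 pools and a difference of 0.066 ± 0.29, which was -0.068 ± 0.21 without wild type pool 1. The spread of each enzyme is that of 1 probe.

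Of the other members, the chaperone of alpha globin, the red cell enzyme Bpgm and Trim10 spread widely between pools, while Hemgn and Tspo2 varied little outside wild type pool 1. Ahsp, the chaperone, stood at 4.14, 4.73, 3.18 and 4.76 against 0.96, 4.84, 2.62 and 3.29, a difference of 1.28 ± 0.77, or 0.62 ± 0.59 without wild type pool 1. Bpgm, which makes the phosphoglycerate that lowers the oxygen affinity of haemoglobin, stood at 2.47, 3.07, 1.71 and 2.83 against -0.14, 2.76, 1.45 and 1.47, a difference of 1.13 ± 0.59, or 0.62 ± 0.43. Trim10, a ring finger protein of erythroblasts, stood at 0.32, 0.98, -0.65 and 0.58 against -1.39, 0.80, -1.78 and -1.41, a difference of 1.25 ± 0.61, or 1.10 ± 0.66. In Trim10 wild type pools 1, 5 and 7 lay below all knockout pools, and wild type pool 2 lay second of all 8. Hemgn, a nuclear protein of blood progenitors and red cells, stood at 5.38, 5.51, 5.16 and 5.59 against 3.80, 5.60, 5.13 and 5.64. Outside wild type pool 1 it spanned 0.50, the narrowest of the members, and its difference of 0.37 ± 0.43 became -0.048 ± 0.17. Trim58, a ubiquitin ligase of late erythroblasts, stood at -5.10, -4.76, -5.06 and -4.35 against -1.05, -4.65, -5.86 and -6.06. It was dim, and well above background in all knockout pools but only in wild type pools 1 and 2, with its highest reading on the array of wild type pool 1. With wild type pools 5 and 7 at background its fitted difference is no measured size and is not given here. The sign of Trim58 in the counts, and its values under other settings below, carry the same limit. Tspo2, a red cell relative of the translocator protein, spanned 0.52 over all pools, with a difference of -0.049 ± 0.25, or 0.022 ± 0.15.

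The globins, which fill the cells these genes build, were also higher on average in the knockout pools. All 7 were positive, with a median of 1.17, and 0.53 without wild type pool 1, and 0 passed after adjustment. Hba-x, the embryonic zeta globin, stood at 8.10, 8.5, 7.49 and 8.29 against 5.02, 8.52, 6.76 and 7.43. Hbb-y and Hbb-bh1, the embryonic beta-like globins, differed by 0.69 ± 0.55 and 0.79 ± 0.55, and by 0.10 and 0.23 without wild type pool 1. Hbb-b1 and Hbb-b2, the adult beta globins, differed by 1.62 ± 0.80 and 1.33 ± 0.64, and by 0.77 and 0.87 without wild type pool 1. Hba-a1 and Hba-a2, the adult alpha globins, differed by 1.23 ± 0.67 and 0.60 ± 0.54, and by 0.56 and 0.020 without it. The members of each of these adult pairs are near copies whose probes may not tell them apart.

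To compare pools, the mean of each gene over the 7 pools other than wild type pool 1 was set to 0. The mean over the 33 members then was 0.24, 0.76, -0.51 and 0.46 in knockout pools 1, 2, 3 and 7. It was -1.50, 0.66, -1.0 and -0.60 in wild type pools 1, 2, 5 and 7. The mean over the globins was 0.29, 0.45, -0.12 and 0.13 in the knockout pools and -2.74, 0.44, -0.78 and -0.42 in the wild type pools. Both means were lowest on the array of wild type pool 1, then in wild type pool 5, and wild type pool 2 stood with the upper knockout pools. With the globin mean of each pool as a covariate in the fit, chosen after the data were seen, the median over members was 0.10. Over the 7 arrays other than that of wild type pool 1 it was -0.12, with 10 members positive (all genes 59.7%) and 23 negative. Members and globins come from the same RNA on the same arrays, so this fit takes away whatever they share.

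The other lists of red cell genes had lower medians than the 33 members on this scale, while with quantile normalization the further regulators had 0.89 and the members 0.84. With the globin covariate on 7 arrays, too, 3 of these 4 lists had higher medians than the members. Of 15 further regulators measured, 14 were positive (median 0.52, and 0.22 without wild type pool 1). The corepressor Cbfa2t3 differed by 0.91 ± 0.44 and Lmo2, which bridges TAL1 and GATA1, by 1.02 ± 0.52, which fell to 0.47 and 0.48 without wild type pool 1. Of 21 further haem and iron genes, 16 were positive (median 0.65, then 0.19). The haem exporter Flvcr1 differed by 0.65 ± 0.28 and the iron carrier Slc11a2 by 0.77 ± 0.34, or 0.56 and 0.57 without that array. Of 16 further membrane and surface genes, 12 were positive, and 8 without wild type pool 1, when the median went from 0.41 to -0.0014. Xk, the partner of Kel in the membrane, differed by 0.87 ± 0.46, or 0.83 without that array. Of 12 genes of red cell metabolism and clearance, 10 were positive (median 0.36, then 0.11). Carbonic anhydrase Car2 stood at 4.53, 5.17, 3.31 and 4.75 against 1.18, 4.94, 2.48 and 2.89, a difference of 1.57 ± 0.76, or 1.01 ± 0.66 without that array. In these 4 lists 0 genes passed after adjustment with limma, beside 0% of all genes. Flvcr1 and Slc11a2 alone reached an unadjusted p under 0.05 (limma) over 8 arrays, beside 1.79% of all genes.

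Platelet genes mostly had lower means in the knockout pools. Of 15 megakaryocyte and platelet genes, 12 were negative, with a median of -0.60, and 13 were negative without wild type pool 1, with a median of -0.64. None passed after adjustment (limma), and 2, Gp5 and Ppbp, reached an unadjusted p under 0.05, beside 1.14% of all genes that were lower. Ppbp, a platelet chemokine precursor, stood at -0.89, -0.94, -1.02 and -1.10 against -0.86, 1.02, -0.33 and 0.13, below every wild type pool in all knockout pools. Pf4, platelet factor 4, stood at 2.06, 2.48, 1.76 and 2.74 against 0.61, 4.48, 2.92 and 3.29, and was named after its values were seen. Without wild type pool 1 the groups separated, lower in the knockout pools, in Pf4, Ppbp and Treml1, beside 4.92% of all genes. With array median scaling 9 of the 15 stayed negative, with a median of -0.059. The platelet glycoprotein Gp5 stood at -4.0, -2.96, -3.95 and -2.72 against -1.0, -1.58, -3.08 and -2.57. It was a dim gene, highest on the array of wild type pool 1, where dim probes read high. Its difference was -1.35 ± 0.53, or -1.0 without that array (limma unadjusted p = 0.063). Relative to the same 7 pools, the platelet list averaged -0.43, -0.14, -0.51 and 0.062 in the knockout group. In the wild type group it averaged 0.039, 0.89, -0.057 and 0.18. Its summed linear level lay between 15.3 and 22.1 times the 75th percentile in the knockout pools and between 11.5 and 44.8 in the wild type pools. The list was highest in wild type pool 2, the wild type pool in which the red cell genes were also highest. Without that pool the median over the platelet list was -0.33, with 11 of 15 genes negative. Pf4 then differed by -0.015 ± 0.65, and neither Gp5 nor Ppbp reached an unadjusted p under 0.05 (limma).

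**Figure D4:**
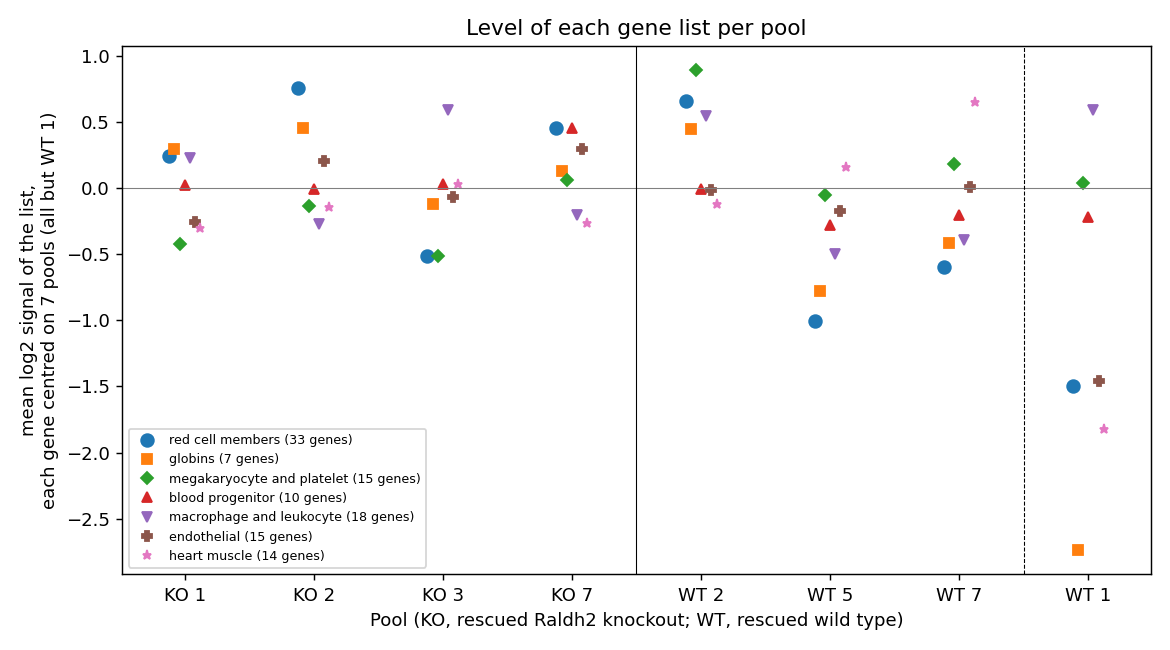
Mean log2 signal of 7 gene lists in each pool, each gene relative to its mean in the 7 pools other than wild type pool 1, which stands right of the dashed line. Left of that line the red cell members range from -1.0 in wild type pool 5 to 0.76 in knockout pool 2, and the globins follow the same order in the wild type pools, while the megakaryocyte list peaks in wild type pool 2 at 0.89.

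In the lists of other cells that a dissected tract could hold, the highest pool outside wild type pool 1 was never knockout pool 2, the highest of the members. The progenitor and macrophage gene Spi1 and the progenitor gene Gfi1 did not pass the filter on dim probes, and the other listed genes did. Of 10 blood progenitor genes measured, 6 were positive; Gata2, which precedes GATA1 in progenitors, stood at -0.14, 0.31, 0.46 and 0.58 against -1.77, -0.65, 0.0042 and -0.44, and Myb differed by 0.68 ± 0.38, or 0.47 without wild type pool 1. The summed linear level of the progenitor list lay between 66.0 and 73.3 times the 75th percentile in the knockout pools and between 14.9 and 63.1 in the wild type pools. Cd34, at 5.39 to 5.54 in the knockout pools, was the brightest gene of the list and weighed most in this sum. Meis1, at 3.82 to 4.55 in the same pools, came next, so these genes made up most of the sum. Kit, Myb, Runx1 and Ptprc lay below the 75th percentile in every pool and added little to it. Of 18 macrophage and leukocyte genes, 8 were positive and 10 negative, from -0.69 to 0.83 with a median of -0.074. Without wild type pool 1, 14 were positive and the median was 0.22. Summed levels were 24.6 to 33.7 against 16.6 to 29.4. The integrin Itgam differed by 0.83 ± 0.47 and the mannose receptor Mrc1 by 0.71 ± 0.51, and both by 0.35 without wild type pool 1. Outside wild type pool 1 the probe that stood for Itgam gave the largest part of the summed level. Itgam has 3 probes, and their mean had a negative difference over 8 arrays. Of 15 endothelial genes, 13 were positive, and 9 without wild type pool 1, with summed levels of 71.1 to 101 against 25.2 to 100.5. The receptor Tie1 differed by 0.82 ± 0.45 and the tight junction protein Cldn5 by 1.0 ± 0.57, which fell to 0.35 and 0.67 without that array.

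Heart muscle genes had lower means in the knockout pools once wild type pool 1 was left out: of 14, 2 were negative over 8 arrays and 14 without that pool. The median without it was only -0.20, beside 0.051 over all genes, of which 59.1% were positive. With all 8 arrays, 13 of these heart muscle genes were negative after quantile normalization and 1 after array median scaling. Of the macrophage list 12 and 17 of 18 were then positive. Nppa, the atrial natriuretic peptide, stood at 1.52, 1.32, 4.02 and 3.62 against 1.65, 4.24, 4.39 and 6.97, and Actc1 differed by 0.52 ± 0.55, or -0.074 ± 0.16 without wild type pool 1. The summed level of the heart muscle list lay between 1984 and 3043 in wild type pools 2, 5 and 7 and between 1999.7 and 2281 in the knockout pools. Relative to the 7 pools other than wild type pool 1, the list averaged -0.30, -0.15, 0.030 and -0.26 in the knockout pools. In wild type pools 2, 5 and 7 it averaged -0.12, 0.16 and 0.65, so wild type pool 7 stood apart and carried much of the difference. All 12 genes of the outflow tract cushion and progenitor list were positive over 8 arrays, and 9 without wild type pool 1, with the semaphorin Sema3c at 1.20 ± 0.42 and the homeobox gene Prrx1 at 0.71 ± 0.40 over 8 arrays, and at 0.84 and 0.61 without that pool. The part of these other cells, and of the amount of blood in each pool, in the values of the red cell genes was not tested.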

How the data were processed

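RNA of 8 pools was measured on Agilent one-colour arrays (design 028005). The authors deposited, in the unit intensity, scanner signals of Agilent Feature Extraction 10.7.3.1 (protocol GE1_107_Sep09), with the background subtracted per the file headers, and a matrix of the same values, rounded. Per the labels, 50 ng of RNA with an integrity number over 8.0 was labelled. Spots of 1 probe were averaged, and log2 values taken relative to each array's 75th percentile. Probes that the scanner software called well above background on 3 or more arrays of either group were kept (33404 of 55681); the kept probe with the highest mean stood for its gene. Groups were compared with limma 3.58.1 in R 4.3.3 (lmFit, eBayes, two-sided, Benjamini-Hochberg over 24387 genes, threshold 0.05), tested on simulated data. Probe positions are those of the files (mm9); no annotation of that build was used, so exons are not named. Promoter windows are RefSeq's.

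The members and lists were chosen with earlier results of these data known. Per-pool values are given for members spanning at least 1 over 8 pools; of each other list the 2 genes with the smallest unadjusted p, and the globins, are named, except 2 genes that are not reported here. Lists were red cell regulators, membrane, haem and iron, metabolism, globins, megakaryocyte, progenitor, macrophage, endothelial, heart muscle and outflow tract cushion. P-values measure the spread between pools, each on 1 array, whose number limits the precision. Alternatives were quantile and median scaling, normexp (offset 50), the matrix, other dim-probe filters, mean of probes, array weights, eBayes trend and robust, pool number or slide column as a block, each pool left out and, chosen after the data were seen, a globin covariate.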

Additional observations from a re-analysis of the deposited data

Results flagged for a closer look

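In 6 of 116 groups of 4 pools, 1 pool lay far from the other 3 by Dixon's test at its 95% critical value, and chance gives about 6. In wild type pool 2, Klf1 stood at 2.41, with the other wild type pools between 0.31 and 0.57, and Trim10 stood at 0.80, with the others between -1.78 and -1.39. On the array of wild type pool 1, Zfpm1 stood at 2.57 (others 4.64 to 5.01), Tie1 at -0.27 (others 1.56 to 1.66) and Lmo2 at -0.56 (others 1.46 to 1.76). In knockout pool 2, Mrc1 stood at -2.54 (others -2.06 to -1.99).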

How the results depend on the processing

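No member passed after adjustment over all genes under any alternative, and their median log2 fold change was positive in all but 1: it was -0.12 with the globin covariate on the 7 arrays other than that of wild type pool 1. With 1 pool left out it ran from 0.59 (without wild type pool 1) to 1.38 (without wild type pool 2). Over these 8 fits the number of members at an unadjusted p under 0.05 ran from 0 to 21, and the number whose groups did not overlap from 0 to 16. The log2 fold changes that turned sign in them were Actc1 from -0.074 to 0.82, Hemgn from -0.048 to 0.56, Ppox from -0.068 to 0.26, Tfrc from -0.13 to 0.34, Trim58 from -0.97 to 0.71 and Tspo2 from -0.15 to 0.022; Trim58 was at background in wild type pools 5 and 7. The number of members at an unadjusted p under 0.05, 1 over 8 arrays, was 0 with quantile normalization, array median scaling, no filter on dim probes and either globin covariate (all genes 0.488% to 8.97%), 2 with eBayes trend and robust (all genes 2.1%), and 9 with the slide column as a block (all genes 1.23%). Array weights let 8 genes of all pass, none of them a member. With quantile normalization the sign turned for Tfrc at -0.11, Sptb at 0.028, Ppox at -0.15, Hemgn at -0.15, Trim58 at 0.028 and Tspo2 at 0.93. Array median scaling turned Sptb at 0.083, Trim58 at 0.13 and Tspo2 at 0.49, with no cause tested. The mean of a gene's probes put Itgam at -0.12 and Xk at -0.014. Array weights put Tfrc at -0.12, Ppox at -0.074, Hemgn at -0.017, Trim58 at 0.54 and Actc1 at -0.037.

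The pool number as a block gave 0 members at an unadjusted p under 0.05, a median of 1.09 and Ppox at -0.032. Deviations of pools with the same number correlated at -0.15, 0.32 and -0.41 for numbers 1, 2 and 7 over 8 arrays. Without wild type pool 1 they correlated at 0.046 and -0.039 for numbers 2 and 7. Not every pool correlated best with its own number. So few pairs cannot settle whether the numbers pair the pools.

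With the globin covariate on 8 arrays the values that turned were Tal1 at -0.022, Zfpm1 at -0.011, Tfrc at -0.33, Ank1 at -0.23, Alad at -0.11, Urod at -0.043, Cpox at -0.12, Ppox at -0.23, Fech at -0.039, Ahsp at -0.0026, Hemgn at -0.28, Trim58 at 0.99, Tspo2 at 0.093, Actc1 at -0.30, Hbb-y at -0.20, Hbb-bh1 at -0.14 and Hba-a2 at -0.29. On the 7 arrays they were Gata1 at -0.40, Klf1 at -0.15, Tal1 at -0.060, Nfe2 at -0.24, Gfi1b at -0.55, Epor at -0.16, Tfrc at -0.32, Slc4a1 at -0.22, Ank1 at -0.52, Add2 at -0.12, Epb4.2 at -0.075, Rhag at -0.093, Rhd at -0.031, Icam4 at -0.072, Alas2 at -0.17, Alad at -0.31, Cpox at -0.24, Ppox at -0.33, Fech at -0.14, Slc25a37 at -0.042, Ahsp at -0.22, Hemgn at -0.20, Trim58 at 0.29, Tspo2 at 0.12, Actc1 at -0.017, Mrc1 at -0.11, Hbb-y at -0.049, Hbb-bh1 at -0.10, Hba-x at -0.10 and Hba-a2 at -0.16. The causes of these changes were not tested.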
